A study of Mus musculus with 36 samples.

Results

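Oxidative phosphorylation couples the oxidation of NADH and succinate to the synthesis of ATP in the inner mitochondrial membrane. Complexes I and II feed electrons to ubiquinone, complex III passes them to cytochrome c and complex IV passes them to oxygen, and complex V uses the resulting proton gradient to make ATP. Most subunits are coded in the nucleus and made in the cytosol, and a small set is coded by mitochondrial DNA. The genes described here are the nuclear-coded subunits and the complex I assembly factors, taken by symbol: those that begin with Nduf, Uqcr, Cox4, Cox5, Cox6, Cox7, Cox8 or Atp5, with Sdha, Sdhb, Sdhc and Sdhd, and without symbols that end in -ps. The rule found 97 of the 40205 features in the count tables. They comprised 42 genes of complex I, 8 complex I assembly factors, 4 genes of complex II, 8 of complex III, 18 of complex IV and 17 of complex V. Ndufa4, which the symbol rule places in complex I, is now known as a complex IV subunit.

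RNA came from neurosphere cultures of neural stem cells (NSCs) of mice labelled C57BL/6J and wild type, which the methods of the study give as C57BL/6J (Ai14), a line with a Cre-dependent tdTomato reporter, taken from the dorsal telencephalon at gestational day 12.5, and from their extracellular vesicles (EVs), collected from the medium by filtration and ultracentrifugation. Fetuses of the same sex were pooled within each of 3 pregnancies (sets 3, 4 and 5), which gave 1 female and 1 male culture per pregnancy. Each culture was kept for 5 days without ethanol (0 mg/dL), at 120 mg/dL (26 mM) or at 320 mg/dL (70 mM), and was sequenced once as cells and once as EVs at every dose. The 36 libraries thus formed 12 groups of 3, and the 6 cultures were the independent units. Counts per library came to 959217 to 5509952 in EVs and 26566061 to 55282322 in cells. The 97 genes held 1265 to 19391 counts in an EV library and 146006 to 355742 in a cell library. The fewest were in the EV libraries of the set 4 female culture at 320 mg/dL, with 1265, and of the set 3 male culture at 120 mg/dL, with 1816. Of 10 NSC markers listed, Vim, Fabp7, Nes and Slc1a3 were abundant in cells. Their means ran from 284 CPM (counts scaled to library size by TMM) for Nes to 1336 CPM for Vim. Notch1 had 109 CPM, Pax6, Hes1, Hes5 and Prom1 had 17.7 (Hes5) to 28.3 CPM (Prom1), and Sox2 had 0 counts in all 36 libraries. Cox16 and Sco2, respiratory genes outside the symbol rule, likewise had 0 counts in all libraries. The reason was not tested, and a count of 0 in all libraries is not taken as absence of an RNA, here or below. Markers of other cell types were also present in cells, with the neuronal Map2 at 690 CPM and the oligodendrocyte lineage marker Olig1 at 295 CPM.

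Of the 97 genes, 89 had enough counts for the comparison of EVs with cells by edgeR's quasi-likelihood test, which asked how the RNA cargo of EVs differed from that of the cells they left. At a Benjamini-Hochberg adjusted p under 0.05, 81 were lower in EVs, 4 were higher and 4 were not called. Of the 81, 4 (Atp5l, Cox6b2, Cox8b and Ndufs5) passed the filter on low counts only through the cell libraries, and the 85 members that passed in EVs alone comprised 77 lower, 4 higher and 4 not called (median log2 fold change -1.43). Conversely, Cox7b2, among the 4 higher, passed that filter only through the EV libraries. Among all 17758 genes tested, 81.8% were called (43.7% lower and 38.1% higher), so that the members' count of lower calls stands against a background in which most genes differed. The median log2 fold change of the members was -1.47 (quartiles -1.77 and -0.99), beside -0.14 for all genes tested. The 81 lower genes were lower by at least 2-fold in 65 cases and by at least 4-fold in 16, and 79 of them were lower in all 6 cultures. CPM values of the 18 EV libraries lay wholly below those of the 18 cell libraries for 52 members, and this held for 17.4% of all genes tested. They lay wholly above for 0 members, beside 5.64% of all genes. All values are shares of a library, so that less of these RNAs per vesicle and more of other RNAs cannot be told apart, just as fewer cells of a type and less RNA per cell cannot.

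The size of the gap depended on which genes it was set against. Protein-coding genes had a median of -0.37 (14204 genes), and those within the quartiles of the members' mean level had -0.85 (3491 genes). When their transcript length was also within the members' quartiles, the median was -1.08 and 75.6% were called lower (513 genes). When every library was thinned to the smallest total, 83 members were tested, of which 63 were lower and 8 higher, with a median of -0.74 beside -0.05 for all 9542 genes tested. At full depth those 9542 genes had a median of -0.75, and 62.9% of them were called lower. The difference between members and tested genes was therefore -0.71 at full depth and -0.69 after thinning. The share of all genes called after thinning is not given here, so that the counts of 63 and 8 are not read against it. By culture, the members' median difference of log2 CPM ranged from -2.31 in the set 4 female culture to -0.93 in the set 4 male culture.

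**Figure D1:**
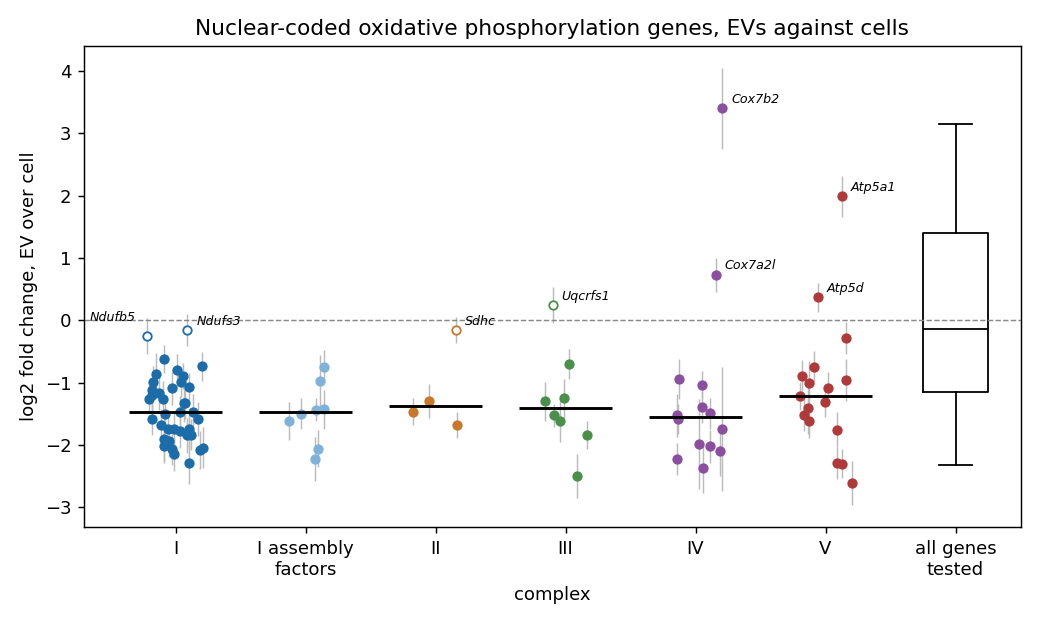
Log2 fold change of EVs over cells (y axis) for the 89 tested genes by complex (x axis), with 95% intervals (grey lines) and the median of each complex (black line). Filled points passed the adjusted p threshold and open points did not, and the box gives the median, quartiles and 5th to 95th percentile of all 17758 genes tested. Most points lie below 0, with medians from -1.55 to -1.21, and Cox7b2, Atp5a1, Cox7a2l and Atp5d passed above it, although Atp5d turned to -0.11 with library totals.

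The promoters of a few members are shown as examples of the motifs searched for. Nuclear-coded respiratory genes are known targets of the factors NRF1, ETS-family GABP and YY1. The RefSeq promoters (GRCm38.p6, 250 bases before to 50 after the start) included 78 of the 97 members. The NRF1 motif (GCGC, 1 base of any kind, then TGCGC, on either strand) was present for 19 of these (24.4%) and for 5.19% of all 27025 genes with a promoter. On either strand, the ETS letters CCGGAAG were present for 19 (24.4%, beside 9.93% of all genes) and the YY1 letters AAGATGGC for 11 (14.1%, beside 3.19%). At least 1 of these 3 motifs, which do not overlap in the sequences shown, was present for 42 members (53.8%) and for 16.4% of all genes. The sequences below run 5′ to 3′ on the gene's strand, with matches in capitals. Sdha (chr13:74350191-74350490, minus strand) holds 3 NRF1 matches, Cox6a1 (chr5:115348909-115349208, minus strand) 2 NRF1 matches and 1 ETS match, and Atp5l (chr9:44920693-44920992, minus strand) 2 ETS matches, and Cox7a2l (chr17:83514284-83514583, minus strand) holds none of the 3. Of the 70 members with a promoter that were lower in EVs, 41 held a motif and 29 did not, Atp5b, Cox7c, Cox7b, Ndufb1 and Ndufc2 among the latter. Of the 3 that were higher, 0 held one, and of the 3 that were not called, Ndufs3 held 2 ETS matches.
Sdha: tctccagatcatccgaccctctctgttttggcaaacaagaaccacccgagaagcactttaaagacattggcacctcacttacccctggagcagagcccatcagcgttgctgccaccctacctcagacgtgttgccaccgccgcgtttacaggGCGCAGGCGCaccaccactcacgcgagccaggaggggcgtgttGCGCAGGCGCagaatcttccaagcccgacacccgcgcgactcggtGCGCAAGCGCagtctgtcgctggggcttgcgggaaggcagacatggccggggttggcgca
Cox6a1: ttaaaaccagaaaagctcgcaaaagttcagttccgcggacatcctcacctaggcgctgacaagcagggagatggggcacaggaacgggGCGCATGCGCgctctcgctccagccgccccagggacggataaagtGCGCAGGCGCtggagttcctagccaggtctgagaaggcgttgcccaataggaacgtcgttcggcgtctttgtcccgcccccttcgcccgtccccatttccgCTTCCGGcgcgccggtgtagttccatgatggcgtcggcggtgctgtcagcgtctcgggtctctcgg
Atp5l: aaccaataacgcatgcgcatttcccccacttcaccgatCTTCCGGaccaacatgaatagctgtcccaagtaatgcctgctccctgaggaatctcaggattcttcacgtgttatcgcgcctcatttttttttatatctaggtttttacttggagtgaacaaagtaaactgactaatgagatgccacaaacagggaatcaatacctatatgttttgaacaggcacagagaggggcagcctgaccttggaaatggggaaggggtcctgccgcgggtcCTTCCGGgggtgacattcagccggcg
Cox7a2l: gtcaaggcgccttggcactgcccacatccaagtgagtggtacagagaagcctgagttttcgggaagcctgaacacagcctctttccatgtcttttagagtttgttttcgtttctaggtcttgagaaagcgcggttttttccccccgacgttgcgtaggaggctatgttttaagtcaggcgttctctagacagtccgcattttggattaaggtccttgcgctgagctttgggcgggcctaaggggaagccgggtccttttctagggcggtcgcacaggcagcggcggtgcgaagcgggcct

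Complex I, the entry point for electrons from NADH, was the largest group. Of its 42 genes 38 were tested, 36 were lower in EVs and 0 were higher, and the median log2 fold change was -1.48. Ndufs1, which carries iron-sulfur clusters of the electron path, ranged from 4.09 to 23.1 CPM in EVs (median 13.6, n = 18) and from 40.9 to 55.7 CPM in cells (median 49.6, n = 18). The groups did not overlap, and the log2 fold change was -1.84 ± 0.13 (SE, adjusted p = 9.89e-16). Ndufv1, the subunit that binds NADH, was lower by less, with a mean of 51.1 ± 3.91 CPM (SD) over the 18 cell libraries and 27.1 ± 7.57 CPM over the 18 EV libraries, again without overlap (log2 fold change -0.89 ± 0.10, and -0.23 with an adjusted p of 0.0544 after thinning). The largest decreases were those of the membrane-arm accessory subunits Ndufb1 (log2 fold change -2.29 ± 0.17) and Ndufc2 (-2.15 ± 0.14). Ndufc2 ranged from 14.2 to 37.3 CPM in EVs (median 27.5) and from 71.1 to 195 CPM in cells (median 114).

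A pair of complex I subunits did not pass the test. Ndufs3, a subunit of the peripheral arm, had a log2 fold change of -0.15 (95% interval -0.41 to 0.10, adjusted p = 0.279), and Ndufb5 had -0.25 (95% interval -0.54 to 0.04, adjusted p = 0.119). Both had EV and cell values that overlapped, Ndufs3 with 11.3 to 49.6 CPM in EVs and 23.5 to 36.6 CPM in cells. With the paired EV and cell libraries as a replicate block, both were called lower, at -0.48 and -0.57, and after thinning both were called higher, at 0.50 and 0.43. Their direction therefore depended on the processing, and both are named here after their values were seen. Ndufa4 was lower in EVs at full depth (log2 fold change -0.86 ± 0.17) and lower in 15 of 18 pairs of EV and cell library, but after thinning it had -0.14 (adjusted p = 0.448). Its paralog Ndufa4l2 was not tested, with 0 to 4 counts in an EV library and 7 to 23 in a cell library. Ndufb4b, which GENCODE annotates as a long non-coding RNA, and Ndufb4c and Ndufs6b, which it annotates as processed pseudogenes, had 0 counts in all 36 libraries.

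The assembly factors, which build complex I and are not part of the finished enzyme, were lower in EVs in 8 of 8 cases (median log2 fold change -1.46). Ndufaf4 and Ndufaf1 had the largest decreases, of -2.22 ± 0.18 and -2.06 ± 0.15. These are genes of low level, and the EV libraries held 3 to 40 counts of Ndufaf4 and 1 to 17 of Ndufaf1. Ndufaf4 nevertheless had no overlap, with 3.44 to 10.5 CPM in EVs (median 7.16) and 15.8 to 61.2 CPM in cells (median 30.8).

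Complex II, succinate dehydrogenase, is also an enzyme of the tricarboxylic acid (TCA) cycle and has no subunit coded by mitochondrial DNA. Its 4 genes did not move alike. Sdha, the flavoprotein that oxidizes succinate, ranged from 19.1 to 63.5 CPM in EVs (median 41.1) and from 109 to 149 CPM in cells (median 136), with a log2 fold change of -1.68 ± 0.11. Sdhb, the iron-sulfur subunit, had -1.47 ± 0.11 and the membrane anchor Sdhd had -1.29 ± 0.14, both without overlap. Sdhc, the other membrane anchor, averaged 64.8 ± 19.3 CPM (SD) over the 18 EV libraries and 71.5 ± 9.46 CPM over the 18 cell libraries, and its log2 fold change was -0.16 (95% interval -0.37 to 0.06, adjusted p = 0.177). It was lower in 10 of 18 pairs and its direction turned with the scaling, to 0.20 with median-of-ratios size factors and 0.42 after thinning, and with the replicate block it was called lower, at -0.44 (adjusted p = 0.00484).

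In complex III, which oxidizes ubiquinol, 7 of 8 genes had lower levels in EVs and the median was -1.41. The small subunit Uqcrb, next to the ubiquinone-binding site, had the largest decrease, at -2.49 ± 0.18. It ranged from 1.19 to 10.6 CPM in EVs (median 6.60) and from 19.4 to 80.0 CPM in cells (median 34.6), and the groups did not overlap. The core proteins Uqcrc1 (-1.52 ± 0.09) and Uqcrc2 (-1.84 ± 0.11) were also lower without overlap. Uqcrfs1, the Rieske iron-sulfur protein, was the exception. It had 32.0 to 137 CPM in EVs (median 73.1) and 46.6 to 93.9 CPM in cells (median 57.9), with overlap and a log2 fold change of 0.24 (95% interval -0.04 to 0.53, adjusted p = 0.116). It was lower in EVs in only 6 of 18 pairs, and it was called higher with median-of-ratios size factors (0.59) and after thinning (1.00), whereas it had -0.23 with library totals and -0.05 with the replicate block, neither of them called.

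Complex IV, cytochrome c oxidase, has subunits with tissue isoforms. Of its 18 genes 14 were tested, and 12 were lower in EVs and 2 higher (median -1.55). The ubiquitous isoforms carried the level in both fractions. Cox4i1, the isoform of subunit 4 found in most tissues, had 187 ± 23.2 CPM per kb of transcript in cells and 91.6 ± 24.4 in EVs (SD, n = 18 each), whereas Cox4i2 had at most 3 counts in a cell library and 1 in an EV library. Cox4i1 ranged from 36.8 to 104 CPM in EVs and from 111 to 185 CPM in cells, without overlap (log2 fold change -1.03 ± 0.11). Of subunit 6a, Cox6a1 had -2.02 ± 0.13, and the heart and muscle isoform Cox6a2 had 0 counts in all libraries. Of subunit 7a, Cox7a2 had -0.94 ± 0.17, with EV values of 9.48 to 58.0 CPM that overlapped the 41.3 to 126 CPM of cells, and -0.28 after thinning (adjusted p = 0.0838). The muscle isoform Cox7a1 was not tested, with 0 to 2 counts in an EV library and 5 to 34 in a cell library. Of subunit 8, Cox8a had -1.39 ± 0.13 without overlap. Cox8b, the muscle isoform, passed through its counts in cells (5 to 113, beside 0 to 3 in EVs), and its call at -1.74 ± 0.51 was lost in the control libraries alone. Cox8c had at most 2 counts in an EV library and 5 in a cell library. The largest decreases were those of the small subunits Cox7c (-2.37 ± 0.20) and Cox7b (-2.22 ± 0.13), and Cox5a, near the centre of the group, had -1.58 ± 0.12.

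The genes of complex IV that were higher in EVs were Cox7a2l and Cox7b2. Cox7a2l (GRCm39 chromosome 17, 83765970 to 83824759) ranged from 37.9 to 144 CPM in EVs (median 72.7) and from 30.4 to 78.1 CPM in cells (median 49.1). The groups overlapped, and EVs were lower in only 3 of 18 pairs of EV and cell library and in 1 of 6 cultures, with a log2 fold change of 0.73 ± 0.14 (adjusted p = 1.53e-05). It had 0.31 with library totals and 0.35 with counts summed over doses, where it was not called, and 0.47 to 0.94 when 1 pregnancy was left out. Cox7b2, a testis isoform of subunit 7b, had 0 to 14 counts in an EV library and 1 to 19 in a far deeper cell library. Its log2 fold change of 3.40 ± 0.33 therefore rests on few reads. It also passed the filter on low counts only through the EV libraries, where it was higher, so that its call carries little weight.

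Complex V, ATP synthase, had 17 tested genes, of which 15 were lower and 2 higher, with a median of -1.21. The catalytic F1 part is built of alternating alpha and beta subunits, coded by Atp5a1 (Atp5f1a in current nomenclature) and Atp5b (Atp5f1b), and these 2 genes diverged. Atp5b (GRCm39 chromosome 10, 127919132 to 127926261) ranged from 49.8 to 142 CPM in EVs (median 111) and from 463 to 637 CPM in cells (median 511), with a log2 fold change of -2.30 ± 0.12 (adjusted p = 1.79e-19). Atp5a1 ranged from 491 to 2137 CPM in EVs (median 1259) and from 217 to 492 CPM in cells (median 300), with a log2 fold change of 1.99 ± 0.17 (adjusted p = 1.48e-13). It was higher in EVs in 18 of 18 pairs, and only the lowest EV library, of the set 4 female culture at 320 mg/dL, overlapped the cell libraries. The count of Atp5a1 divided by that of Atp5b was 0.440 to 0.778 in cells (median 0.579) and 5.29 to 18.9 in EVs (median 12.5), so that every EV library had the opposite order to every cell library. Atp5a1 took 26.6% to 46.0% of the counts of all 97 genes in EVs and 4.48% to 8.91% in cells.

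**Figure D2:**
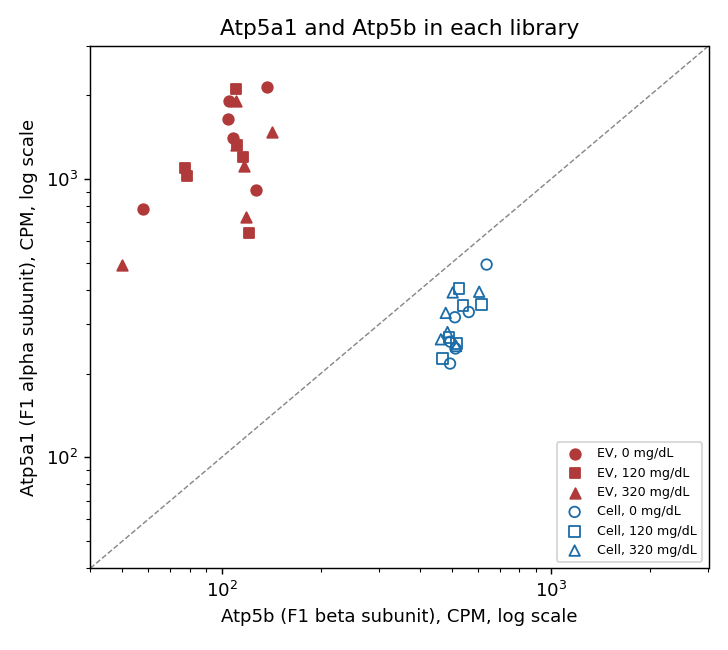
CPM of Atp5a1 (y axis) against Atp5b (x axis), both on log scales, in the 18 EV libraries (filled) and the 18 cell libraries (open), with the shape of the point giving the ethanol dose. The dashed line marks equal CPM. All EV libraries lie above it and all cell libraries below it, at each dose.

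A gene on the opposite strand, Haus1, overlaps Atp5a1. It held 5 to 44 counts in an EV library, beside 414 to 8356 for Atp5a1, and its log2 fold change was -0.25 ± 0.13 (adjusted p = 0.0823). Of the 97 members, 63 overlap an annotated gene on the opposite strand in GENCODE, and whether HTSeq used strand is not given in the sources used here, so that reads of such partners could not be told apart from reads of the members. Many genes of this kind also have processed pseudogenes elsewhere in the genome, and how reads that align to several places were counted is not given either. Levels of members with such copies are uncertain for that reason, and which members have them was not examined.

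The other subunits of complex V were ordered as follows. Atp5l, subunit g of the membrane part, had -2.61 ± 0.18, with 0 to 12 counts in an EV library and 199 to 665 in a cell library, and it passed the filter only through the cell libraries. Atp5d, the delta subunit of the central stalk, was higher in EVs (0.37 ± 0.12, adjusted p = 0.00422), with 28.4 to 106 CPM in EVs and 42.2 to 65.2 CPM in cells, which overlapped. Its call was lost with the replicate block (0.08, adjusted p = 0.602) and its direction turned with library totals (-0.11). Atp5d and Cox7a2l are likewise named after their values were seen. The 3 genes of the c-ring, Atp5g1, Atp5g2 and Atp5g3, code for the same mature protein with different leader sequences. Per kb of transcript, Atp5g3 had the highest level in cells (106 ± 23.6 CPM, SD, n = 18), above Atp5g1 (37.3 ± 20.3) and Atp5g2 (28.1 ± 7.37). Atp5g1 had a log2 fold change of -1.40 ± 0.21 and Atp5g2 was lower by 2.00-fold, with -0.36 after thinning (adjusted p = 0.0666). Atp5g3 had -0.29 ± 0.13 (adjusted p = 0.0451), and its call was lost without pregnancy set 3 (-0.10) and in the control libraries alone, and it turned to 0.07 with median-of-ratios size factors and to 0.30 after thinning.

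Levels per length were ordered in part alike in both fractions. Among the 96 members with a transcript length, Atp5b had the highest mean in cells (271 ± 26.3 CPM per kb), followed by Cox4i1, Ndufa4 (181 ± 48.9) and Ndufc2 (172 ± 50.4). The spread of Cox4i1, Ndufa4 and Ndufc2 overlapped. In EVs Atp5a1 had the highest (521 ± 202 CPM per kb), followed by Ndufa4 (98.4 ± 40.6), Cox4i1 (91.6 ± 24.4) and Atp5g3 (87.6 ± 26.9), of which the last 3 did not differ beyond their spread. Atp5a1 was at place 9 in cells, and Cox7a2l moved from place 41 in cells to place 6 in EVs. Over 88 tested members with a length, Spearman's rho between the levels in EVs and cells was 0.89. The difference between EVs and cells (log2) had a rho of 0.02 with transcript length and -0.11 with gene span over the same members. These are descriptions across genes that share the same libraries.

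**Figure D3:**
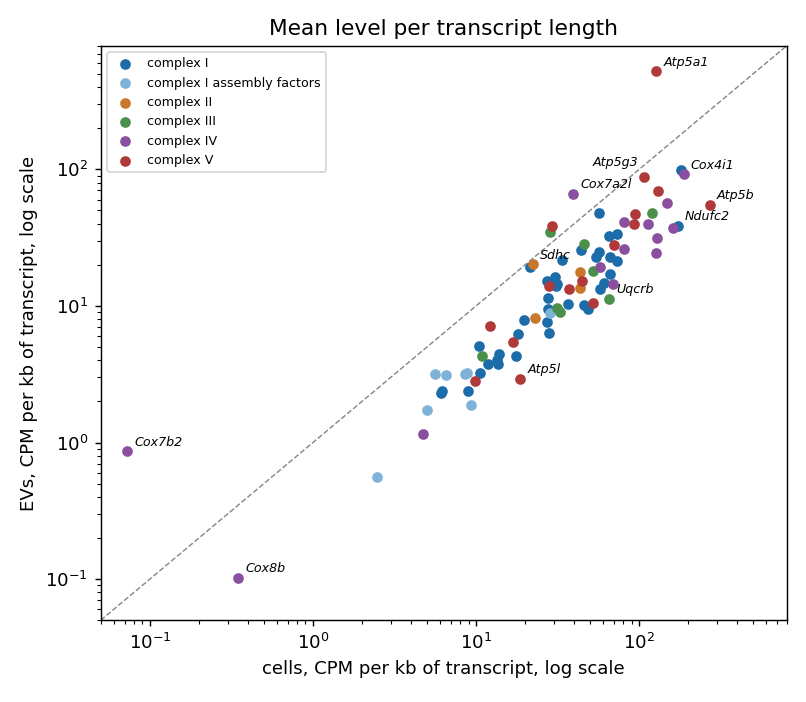
Mean CPM per kb of transcript in EVs (y axis) against cells (x axis), both on log scales, for the 88 tested members with a length, coloured by complex. The dashed line marks equal levels. Most genes lie below the line in a band parallel to it, and Atp5a1, Cox7a2l, Cox7b2, Atp5d and Uqcrfs1 lie above it, of which Atp5d and Uqcrfs1 turn below 0 in log2 fold change with library totals.

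Related gene groups were compared in the same way. Of 45 further nuclear-coded respiratory genes and assembly factors outside the symbol rule, 41 were tested, 32 were lower in EVs and 4 higher, with a median of -0.94. Their largest changes were those of Taco1, a translational activator of the mitochondrially coded subunit 1 of complex IV (-3.62 ± 0.22), and of Cox18, which inserts subunit 2 of complex IV into the membrane (1.11 ± 0.13). The electron carrier cytochrome c, Cycs, had -2.78 ± 0.20. Of 19 genes of the TCA cycle and its entry enzymes, 18 were lower and none higher (median -1.41), with the largest decrease in Dld, the dehydrogenase subunit shared by several of these complexes (-2.99 ± 0.15). Of 13 mRNAs coded by mitochondrial DNA, 8 were tested and all 8 were lower (median -3.70), from ND6 at -1.27 ± 0.19 to ND2 at -4.15 ± 0.26. ND4L, COX2, COX3, ATP6 and ATP8 had at most 11 counts in any cell library and 0 in EVs, whereas COX1 and CYTB averaged 4997 and 2727 CPM in cells. These low counts are not taken as expression levels, since how reads with several alignments were counted is not given. The reason for them was not tested. Of 20 genes for the control of mitochondrial transcription and replication, 10 were lower and 6 higher (median -0.28). Tfb2m, a mitochondrial transcription factor, had the largest decrease (-1.63 ± 0.17), and Twnk, the mitochondrial DNA helicase, the largest increase (1.33 ± 0.19).

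Markers of cell types were summarized in the same way, and their part in the results above was not tested. Of 10 NSC markers, 7 of 9 tested were lower in EVs and 1 higher, and the summed level was 704 to 1383 CPM in EVs and 2973 to 4595 CPM in cells. The largest changes were those of Slc1a3 (-3.41 ± 0.17) and Hes5 (1.45 ± 0.27). Of 8 neuron markers, 3 were lower and 2 higher (187 to 347 CPM in EVs, 483 to 1026 CPM in cells), with Snap25 at -2.18 ± 0.45 and Stmn2 at 2.35 ± 0.32. Of 8 oligodendrocyte lineage markers, 4 were lower and 3 higher (178 to 438 CPM in EVs, 332 to 641 CPM in cells), with the largest increase in Sox10 (1.69 ± 0.30). Of 5 astrocyte markers, 4 were lower (21.5 to 152 CPM in EVs, 65.6 to 503 CPM in cells), Gja1 most (-3.64 ± 0.23), and Aqp4 had 0 counts in all libraries. Microglial, endothelial and blood markers were near 0, with sums of at most 10.6, 34.4 and 2.37 CPM in an EV library and 0.703, 4.66 and 0.212 CPM in a cell library. Of these, the microglial Csf1r (1.76 ± 0.23) and 3 endothelial markers, Kdr most (1.52 ± 0.28), were higher in EVs. Csf1r and Kdr rest on few reads, with 0 to 8 and 1 to 9 counts in an EV library. Csf1r and Stmn2 had means of 0.384 and 0.281 CPM in cells. At such levels they passed the filter on low counts mainly through EVs, where they were higher, so that these calls carry little weight.

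The ethanol comparisons were made within cultures, between the libraries of the same 6 cultures at different doses, and asked whether the exposure changed the members in EVs or in cells. No member was called by edgeR in any of them. In EVs, 0 of 85 tested members passed at 120 mg/dL against 0 mg/dL (0.00758% of 13193 genes tested were called), 0 of 85 at 320 against 0 mg/dL (0.0758% of genes) and 0 of 85 at 320 against 120 mg/dL (0% of genes). At an unadjusted p under 0.05 the counts were 3, 3 and 5. For 120 against 0 mg/dL, 784 of all 13193 genes tested had such a p. In cells, 0 of 91 tested members passed at each of the 3 contrasts, as did 0% of 18725 genes, with 0, 1 and 0 members at an unadjusted p under 0.05. DESeq2 also called 0 members in all 6 comparisons. The comparisons share libraries, the control libraries at both doses among them.

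The summed level of the members overlapped between doses. In EVs it was 1986 to 4958 CPM at 0 mg/dL (median 3547, n = 6), 2411 to 4746 CPM at 120 mg/dL (median 2844) and 1499 to 4394 CPM at 320 mg/dL (median 3346). In cells it was 4228 to 6372 CPM (median 4924), 4528 to 5975 CPM (median 4902) and 4270 to 7367 CPM (median 5154) at the same doses. Without Atp5a1 the EV libraries held 1008 to 2822 CPM and the cell libraries 3910 to 7037 CPM, with no overlap at any dose. With Atp5a1 the sums of EVs and cells overlapped, since the highest EV library (4958 CPM) exceeded the lowest cell library (4228 CPM).

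**Figure D4:**
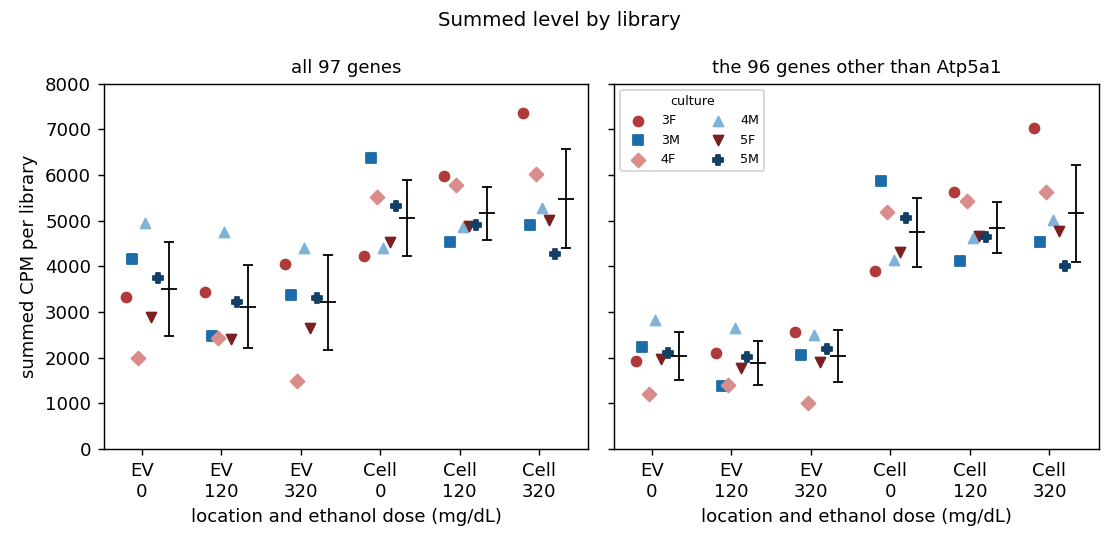
Summed CPM (y axis) of all 97 genes (left) and of the 96 genes other than Atp5a1 (right) in each library, by location and ethanol dose (x axis). Points are single libraries marked by culture, and the bars give the mean and SD of 6 libraries. On the right the EV libraries lie at 1008 to 2822 CPM and the cell libraries at 3910 to 7037 CPM, and doses overlap within EVs and within cells.

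By complex, median log2 fold changes in EVs at 120 mg/dL were between -0.09 (complexes II and IV) and -0.01 (assembly factors), and at 320 mg/dL between -0.04 (complex II) and 0.10 (complex III). The median standard error of a member in EVs was 0.17, and the 95% interval lay within a 2-fold change in either direction for 81 of 85 members at 120 mg/dL and for 80 of 85 at 320 mg/dL. In cells the medians were 0.03 at 120 mg/dL and 0.09 at 320 mg/dL over all members, and the interval lay within a 2-fold change for 90 and 89 of 91. At 320 mg/dL in cells 77 of 91 members had a positive value, beside 9319 of 18725 genes tested. With library totals in place of TMM scaling this median was -0.01 beside -0.11 for all genes, and no member passed under either scaling.

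**Figure D5:**
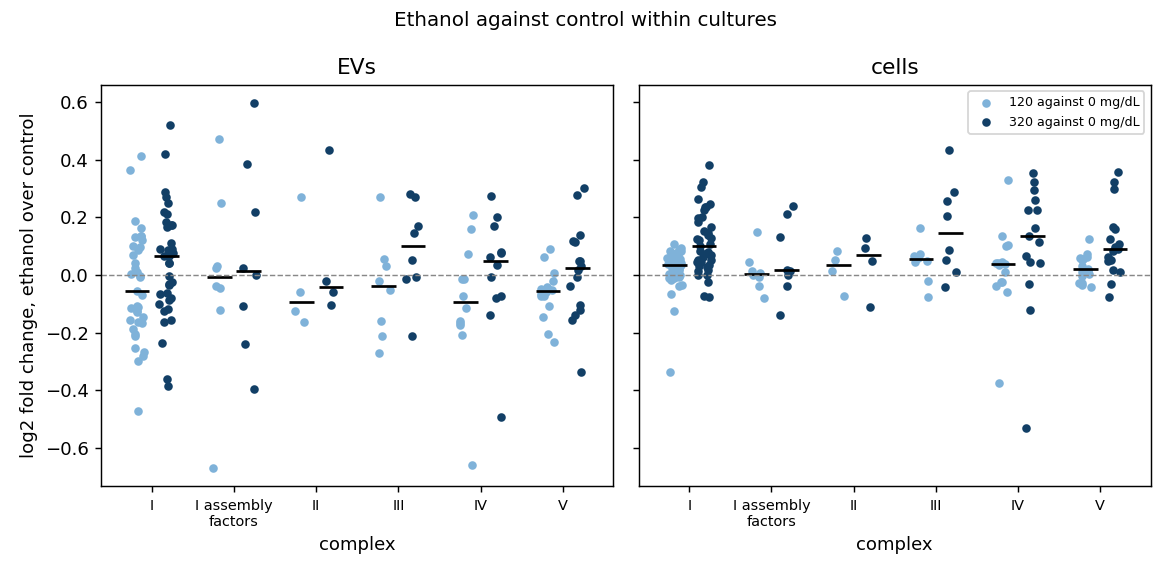
Log2 fold change of ethanol over control (y axis) for each tested gene by complex (x axis) in EVs (left, 85 genes) and cells (right, 91 genes), at 120 mg/dL (light) and 320 mg/dL (dark), with the median of each complex as a black line. No gene passed the adjusted p threshold at either dose, and the medians lie between -0.09 and 0.15.

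The members with the smallest unadjusted p are given as values. In EVs at 320 mg/dL, Sdha had 31.7, 38.4, 19.1, 41.4, 42.5 and 40.8 CPM in the control libraries of the cultures 3F, 3M, 4F, 4M, 5F and 5M (set number, female or male). At 320 mg/dL the same cultures had 58.2, 42.1, 32.0, 40.7, 48.6 and 63.5 CPM. Ethanol values were above control in 5 of 6 cultures, the groups overlapped, and the log2 fold change was 0.43 (95% interval 0.17 to 0.69, adjusted p = 0.21). Ndufa1 (0.52 ± 0.22) and Ndufb5 (-0.36 ± 0.17) followed, with adjusted p of 0.423 and 0.45. At 120 mg/dL, Ndufs3 had -0.47 (95% interval -0.79 to -0.15, adjusted p = 0.841), below control in 6 of 6 cultures, from a mean of 29.2 ± 9.17 CPM to 20.6 ± 6.29 CPM (SD, n = 6 each). Uqcrfs1 (-0.27 ± 0.11) and Cox6c (-0.66 ± 0.30) had the same adjusted p of 0.841. Between 320 and 120 mg/dL, Ndufs3 (0.64 ± 0.16), Ndufa11 (0.63 ± 0.21) and Cox8a (0.34 ± 0.12) each had an adjusted p of 1. Atp5a1 had -0.20 (95% interval -0.58 to 0.18) at 120 mg/dL and -0.34 (95% interval -0.72 to 0.04) at 320 mg/dL in EVs.

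In cells at 320 mg/dL, Cox8b had -0.53 (95% interval -0.92 to -0.15, adjusted p = 0.483), at 0.610 ± 0.434 CPM beside 0.921 ± 0.799 CPM in controls (SD, n = 6 each), and Ndufaf3 (0.24 ± 0.12) and Ndufaf2 (0.21 ± 0.11) followed. At 120 mg/dL the smallest p were those of Cox8b (-0.37 ± 0.19), Ndufa4l2 (-0.34 ± 0.28) and Ndufaf3 (0.15 ± 0.12), each with an adjusted p of 1. Between 320 and 120 mg/dL they were those of Ndufaf2 (0.20 ± 0.11), Ndufaf5 (0.12 ± 0.08) and Atp5d (0.12 ± 0.08), again with an adjusted p of 1.

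Whether ethanol shifted the members between cells and EVs was tested as the change of the EV:cell ratio. No member was called by edgeR at 120 mg/dL (0.00438% of 22854 genes were) or at 320 mg/dL (0%), 0 of 91 had an unadjusted p under 0.05 at either dose, and DESeq2 called 0. Medians were -0.13 and -0.10, beside -0.02 for all genes at both doses. This fit paired the EV and cell libraries but had no term for the EV:cell difference of each culture, its median standard error was 0.38, and 55 and 54 of 91 intervals lay within a 2-fold change in either direction. With a term for that difference, the median standard error was 0.24, 81 and 76 intervals lay within a 2-fold change, 0 members were called, and 2 and 6 had an unadjusted p under 0.05. At 120 mg/dL the smallest p were those of Cox6c (-0.62 ± 0.46), Ndufs3 (-0.48 ± 0.37) and Cox7a1 (-1.60 ± 1.28), and at 320 mg/dL those of Ndufaf2 (-0.71 ± 0.41), Ndufaf1 (0.70 ± 0.41) and Sdha (0.54 ± 0.33), each with an adjusted p of 1.

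Female and male cultures were compared after adding up the 3 doses of a culture, 3 cultures against 3. This fit had no term for pregnancy, although each pregnancy gave a female and a male culture. With pregnancy as a block, 0 members were called in EVs or in cells. In EVs 0 of 86 tested members passed (0% of 14847 genes were called, and 2 members had an unadjusted p under 0.05), and in cells 0 of 91 (0.0334% of 20972 genes, 1 member). DESeq2 called 0 members in both. The median difference of females over males was -0.17 in EVs, beside 0.04 for all genes, and 0.09 in cells, beside -0.03. In EVs Uqcrfs1 had -0.72 ± 0.30 (adjusted p = 0.325), Atp5d -0.58 ± 0.26 (adjusted p = 0.333) and Ndufs4, a late-assembling subunit of complex I, 0.50 ± 0.23 (adjusted p = 0.343). Of these, Atp5d was lower in females in 3 of 3 pregnancies and Ndufs4 higher in 3 of 3. In cells Uqcrq (0.37 ± 0.15, adjusted p = 0.746) and Uqcr10 (0.29 ± 0.15, adjusted p = 0.79), small subunits of complex III, were higher in females in 3 of 3 pregnancies, and Cox8b had -1.21 ± 0.59 (adjusted p = 0.788).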

How the data were processed

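The authors deposited raw counts per gene for each of the 36 libraries. Per the labels and the methods of the study, RNA was depleted of rRNA, libraries were made with a stranded kit and sequenced in 1 pooled run, and reads were trimmed with Trimmomatic, deduplicated, aligned to mm39 with STAR and counted with HTSeq. RNA was isolated with the miRNeasy micro kit from EVs and with the miRNeasy mini kit from cells. An RNA integrity number was obtained for cells but could not be calculated accurately for EVs. Effects of kit and RNA integrity cannot be told apart from the difference between EVs and cells. The strand setting of the counting and the treatment of reads with several alignments are not given in the sources used here. Library totals were 959217 to 5509952 in EVs and 26566061 to 55282322 in cells, so that low genes are measured less precisely in EVs. No pair of libraries held identical values.

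Counts were tested with edgeR 4.0.16 in R 4.3.3 (quasi-likelihood test, TMM scaling, filterByExpr with a minimum count of 10 and a minimum total of 15), and p-values were adjusted by Benjamini-Hochberg over all genes tested. Intervals are normal 95% intervals of the log2 fold change. CPM values are TMM-scaled. Ethanol fits had the culture as a block, the ratio fit had the pair of EV and cell library, and EVs were compared with cells over all 36 libraries without one. The comparison of sexes on summed counts also had no block. Cultures were separate by pregnancy and sex, and the doses of a culture were not independent of each other, so that p-values of fits that take all 36 libraries as independent can be too small. Alternatives were DESeq2 1.42.0, other size factors, no filter, each pregnancy left out, replicate blocks, summed counts, control libraries alone and thinning of each library to 959217 counts. Leaving out the 2 EV libraries with the fewest member counts was chosen after seeing the data. The test was also tried on simulated counts, with levels and spread taken from these data but without effects of culture or pregnancy. Such counts cannot show how the p-values behave when the libraries of a culture are not independent.

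The EV and the cell library at a given dose come from the same culture. Their deviations from the group means correlated with a median of 0.0633 (3 of 18 pairs over 0.1), and those of ethanol and control libraries of a culture with 0.179 in EVs (11 of 12) and 0.605 in cells (12 of 12). For the female and male culture of a pregnancy the median was 0.213 in EVs (-0.191 to 0.306) and 0.407 in cells (-0.429 to 0.562), over 3 pairs each.

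The members and gene lists were chosen with earlier results of these data known. Named genes were a fixed set of subunits and isoforms, the 2 genes per complex with the largest called change in each direction that moved one way in all 6 cultures, and otherwise the 3 with the smallest unadjusted p. Of each list the largest change in each direction was named. The result of 1 such gene is not reported here. The inhibitor of complex V is listed as Atpif1 and is outside the symbol rule. Lengths are those of Ensembl canonical transcripts in GENCODE (GRCm39), on which 96 of 97 members were placed. Promoters are from RefSeq (GRCm38.p6). Figures were drawn with matplotlib 3.10.9.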

Additional observations from a re-analysis of the deposited data

Results flagged for a closer look

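In 96 sets of 6 libraries (a selection of the named genes, the sums by complex and their shares, each at 1 location and dose), 8 held a library far from the other 5 by Dixon's test, which chance alone gives in about 1 of 20 sets. In EVs these were Cox8b at 120 mg/dL (0.277 CPM in 5F, 0 in the others), Uqcrfs1 at 120 mg/dL (129 CPM in 4M, next 73.5 CPM) and Atp5b at 320 mg/dL (49.8 CPM in 4F, next 111 CPM). The Cox8b value in EVs is 1 read, and with 0 in the others the test flags any read. In cells they were the share of counts held by the members at 0 mg/dL (0.844% in 3M, next 0.605%), Ndufs3 at 120 mg/dL (23.5 CPM in 3M, next 30.3 CPM) and Atp5b at 320 mg/dL (605 CPM in 4F, next 515 CPM). Cox8b in cells stood apart in 5M at 0 mg/dL (2.50 CPM, next 0.785 CPM) and at 320 mg/dL (1.45 CPM, next 0.611 CPM).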

How the results depend on the processing

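In the comparison of EVs with cells, the members' median stayed below 0 under each alternative run, and the cause of the changes below was not tested. It was -1.96 with library totals and -0.74 after thinning, and -1.36 to -1.51 without 1 pregnancy. Relative to the median of all genes (-1.33), it was -2.23 without a filter, -1.85 with the replicate block, -1.94 with summed counts and a block, and -0.69 after thinning. With DESeq2, 46.3% of all genes were higher and 35.4% lower, and 80 members were lower and 6 higher. Among the named genes, Sdhc had 0.21 with DESeq2, 0.20 with median-of-ratios size factors and 0.42 after thinning, and Atp5g3 had 0.075, 0.067 and 0.30. Atp5d had -0.11 with library totals and -0.013 with summed counts, and Ndufs3 and Ndufb5 had 0.50 and 0.43 after thinning. Uqcrfs1 had -0.23 with library totals and -0.05 with the block, and Ndufb7, from -0.62, had 0.14 after thinning (not called). The replicate block changed the calls of Atp5d (0.08), Sdhc (-0.44), Ndufs3 (-0.48) and Ndufb5 (-0.57) and of no other tested member. Of 57 alternative fits of the ethanol comparisons, 56 called 0 members and 1 called 1 (Cox6c at 120 mg/dL in EVs without a filter, -0.69, adjusted p = 0.0443). The fit that called Cox6c also called 0.530% of all 29604 genes tested. All 20 alternative fits of the EV:cell ratio called 0. With 18 libraries in place of summed counts, which takes the doses of a culture as independent, the comparison of sexes called 3 members in EVs and 1 in cells. Few counts in EVs limit the precision of low genes.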
